A study of Mus musculus with 12 samples.

Results

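The deposited value table of this mouse ovary study has 12 columns, 1 per sample, and the 4 columns of the peripubertal diet group, P1 to P4, carried the hormone genes of the anterior pituitary. They are described here against the other 8 columns as a contrast of tissues, not of diets. The 4 columns were chosen by their own table values, which in earlier work on these data had shown pituitary genes and had matched no channel of the deposited scanner files. Every difference between the 2 sides in the table is therefore a description and serves as no test. Of 43020 probe features that measure transcripts, 35123 had a value in at least 3 columns on each side, and these covered 24536 genes.

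All samples are labelled as ovary of C57BL/6J female mice 2 months old, with 4 females per diet group and no transgene or other genetic change named. Control mice (C1 to C4) ate a normal diet, early-life mice (E1 to E4) were deficient in vitamin D in early life alone, and peripubertal mice (P1 to P4) around puberty alone. RNA was amplified and labelled with Cy3 (replicates 1 and 3) or Cy5 (replicates 2 and 4), and 2 samples of a group shared each of the 6 arrays, which Agilent reads in 2 colours. The doses and the exact weeks of the diets are not given in the sources used here.

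The anterior pituitary makes its hormones in separate cell types: somatotrophs make growth hormone, lactotrophs prolactin, corticotrophs the precursor of ACTH, thyrotrophs TSH, and gonadotrophs LH and FSH. TSH, LH and FSH share the alpha subunit encoded by Cga and differ in their beta subunits. Releasing factors from the hypothalamus drive these cells, which store prohormones in secretory granules, while a posterior lobe holds nerve endings of the hypothalamus. LH and FSH in turn drive the ovary, whose follicles hold an oocyte, granulosa cells and theca cells that make steroids.

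Of the hormone genes, Gh, Pomc and Lhb were read by 60-base probes within or nearly within their coding sequence, shown here as the letters on which the hormone values rest. Positions are those of the scanner files, in build mm9: Gh at chr11:106162492-106162735 (minus strand), Pomc at chr12:3960413-3960472 (plus) and Lhb at chr7:52676685-52676744 (plus). A span longer than the probe means that the probe crosses a splice junction. Capitals mark the stop codon in Pomc, and nothing is marked in Gh and Lhb.
Gh: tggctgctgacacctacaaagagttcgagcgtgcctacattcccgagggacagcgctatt
Pomc: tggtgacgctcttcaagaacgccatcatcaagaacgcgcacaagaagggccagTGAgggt
Lhb: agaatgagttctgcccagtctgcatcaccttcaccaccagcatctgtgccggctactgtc
The ovary side is represented by Zp3, a protein of the coat around the oocyte (chr5:136464281-136464340, plus), and Inha, the inhibin alpha subunit of granulosa cells (chr1:75506675-75506734, plus), with nothing marked.
Zp3: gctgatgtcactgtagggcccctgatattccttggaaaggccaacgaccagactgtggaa
Inha: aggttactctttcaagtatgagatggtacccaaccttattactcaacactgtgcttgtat

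The table and the scanner files were first set against each other. Across the 43020 features, each control and early-life column matched 1 scanner channel with a Pearson correlation of 0.9998, in every case a channel labelled with the other of these 2 groups. Both groups are on the same side here, so this exchange of names leaves the contrast as it is. The 4 peripubertal columns reached at most 0.8736 to 0.8967 with any of the 12 channels, and 0.8676 to 0.8928 with the channel of their own name. Between columns, correlations were 0.9772 to 0.9883 among P1 to P4, 0.9581 to 0.9897 among the other 8, and 0.8542 to 0.8967 from one side to the other. In the scanner files, the peripubertal channels correlated with the other channels at 0.9554 to 0.9822. The table's values are thus not those of the scanner channels that carry the peripubertal labels, and which samples P1 to P4 measured is not settled by the sources used here.

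**Figure D1:**
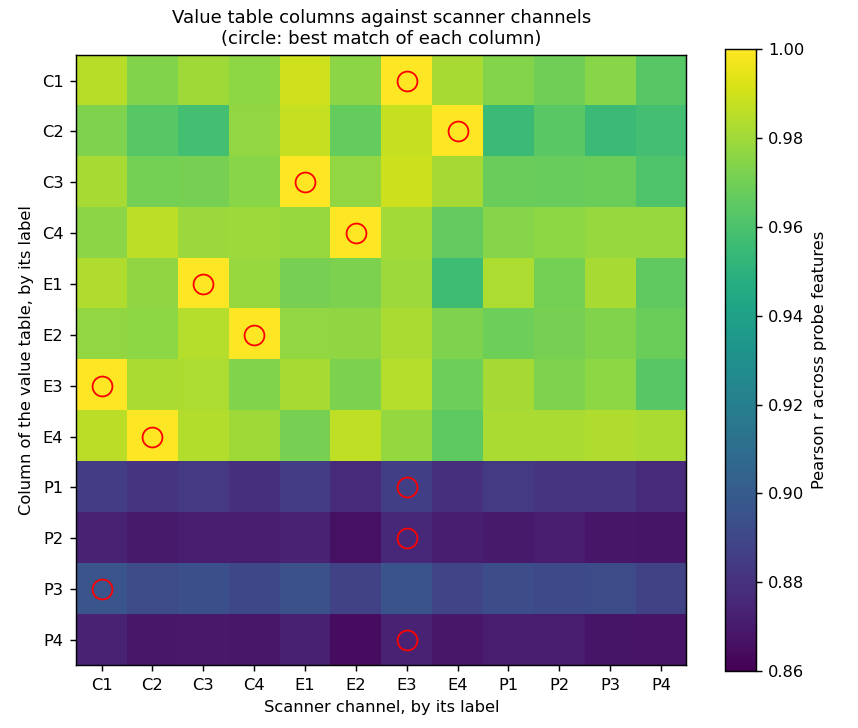
Heat map of Pearson correlations across 43020 probe features between the 12 table columns (vertical) and the 12 scanner channels (horizontal), named by their labels, with a red circle at each column's best match. The 8 control and early-life columns each have 1 match at 0.9998, and P1 to P4 stay between 0.8736 and 0.8967 at best.

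Values are log2 with the median of each column at 0, and the dye sets where dim probes lie. In the ovary columns the lowest value of a probe well above background in the matched channel was -1.78 to -1.32 for Cy3 and -3.98 to -3.70 for Cy5. Missing values numbered 755 to 769 in the Cy3 and 9291 to 9402 in the Cy5 peripubertal columns, against 99 to 428 and 8846 to 10099 in the other columns of these dyes. In the 8 ovary columns 97.98 to 100% of the missing features were not well above background in the matched channel. Background marks for P1 to P4 were not used here, because no channel matches them. Where all 8 ovary channels were not well above background, a difference is given as "at least N-fold". This sets the mean of the peripubertal columns against the mean, per ovary column, of the higher of the lowest value well above background and the probe's own value. It is taken with empty cells at that lowest value and over the columns with a value alone, and the lowest of both and of the fitted difference is printed. Where 2 or more of a gene's peripubertal values were at or below -1.32 (Cy3) or -3.70 (Cy5), the values are given with no difference, though list medians include such genes. Other differences are log2 values from a limma fit that adjusts for dye and takes arrays as a random block, given ± SE.

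By the rule used for calls (Benjamini-Hochberg adjusted p under 0.05 and at least 2-fold), 3289 genes (13.4%) were higher and 3512 (14.3%) lower in the peripubertal columns, and 17735 were not called. All peripubertal values lay above all other values in 1547 genes (6.31%) and below them in 1849 (7.54%). Genes both called and apart numbered 1534 (6.25%) on the higher and 1790 (7.3%) on the lower side. The median difference over all genes was 0.002. Differences of at least 5 on the log2 scale were seen in 149 genes on the higher and 107 on the lower side, probes near background included. Genes dim in the ovary columns often kept 4 Cy3 values and were tested. Genes dim in P1 to P4 often kept 2 values and were not, Cyp11a1 among them. Higher and lower counts are therefore not directly comparable. At the limit of the 2-fold rule, Stat4 at 1.0002 was inside and Tmbim4 at 0.99992 outside. At the limit on missing values, 3276 probes had a value in 3 of the peripubertal columns and 6615 in 2. These calls come from the contrast that chose the columns, so the list counts below are read only as a description beside these shares.

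All 7 anterior pituitary hormone genes were higher in P1 to P4, each with all values above those of the other columns, and their median difference was 8.75, or 8.73 with the 5 genes at background in ovary set to their lower bounds. In bulk tissue, more cells of a type and more RNA per cell cannot be told apart. Gh, growth hormone, measured 10.03, 9.94, 10.24 and 10.20 in P1 to P4, against -4.08 to -1.43 (median -2.85) in the other 8 columns. The 4 columns lay within a narrow range and far from the ovary columns, whose probe was not well above background in any matched channel. These Gh values were at percentiles 99.98 to 100 of P1 to P4, whose highest values were 10.14 to 10.24. Whether the top of the scale narrows the spread was not tested. Gh was at least 6862-fold higher. Prl, prolactin, measured 10.06, 9.74, 9.27 and 9.60 in P1 to P4, against -2.24 to -2.04 (median -2.14, 4 columns with a value), and was at least 2552-fold higher. No Cy5 ovary column held a value for it. Cga, the shared alpha subunit, measured 9.97, 8.61, 9.70 and 9.31 in P1 to P4, against -4.23 to -1.78 (median -2.20, 7 columns with a value), and was at least 4019-fold higher. P2 was the lowest of the 4. A second, dimmer Cga probe averaged -1.35 in P1 to P4 and -1.96 in the other columns.

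Pomc, the precursor of ACTH and melanocyte-stimulating hormone, measured 8.75, 10.14, 8.78 and 10.22 in P1 to P4. It was well above background in all 8 ovary channels, with table values of -0.33 to 1.95 (median 0.63), and the difference was 8.73 ± 0.47. The Cy5 columns P2 and P4 were 1.41 above the Cy3 columns P1 and P3, and the 2 sides did not overlap. Tshb, the beta subunit of TSH, measured 6.03, 5.93, 5.61 and 5.27 in P1 to P4, at least 164-fold above the ovary columns. Lhb, the beta subunit of LH, measured 5.27, 2.77, 6.28 and 5.12 in P1 to P4, against -2.44 to -0.24 (median -1.04), a difference of 6.13 ± 0.37. Fshb, the beta subunit of FSH, measured 5.33, 5.74, 7.62 and 6.33 in P1 to P4, at least 239.7-fold above. Of the hormone genes, the gonadotrophin beta subunits varied most among the 4 columns, with SDs of 1.48 for Lhb and 1.00 for Fshb. Gh, at the top of the scale, had 0.14. These SDs include the dye: Cy5 minus Cy3 among P1 to P4 was -1.825 for Lhb and -0.44 for Fshb. Lhb was also lower in the Cy5 ovary columns (-2.44 to -1.43) than in the Cy3 ones (-0.66 to -0.24). The markers of pituitary hormone cells were thus present in all 4 columns, whose samples are labelled as ovary.

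**Figure D2:**
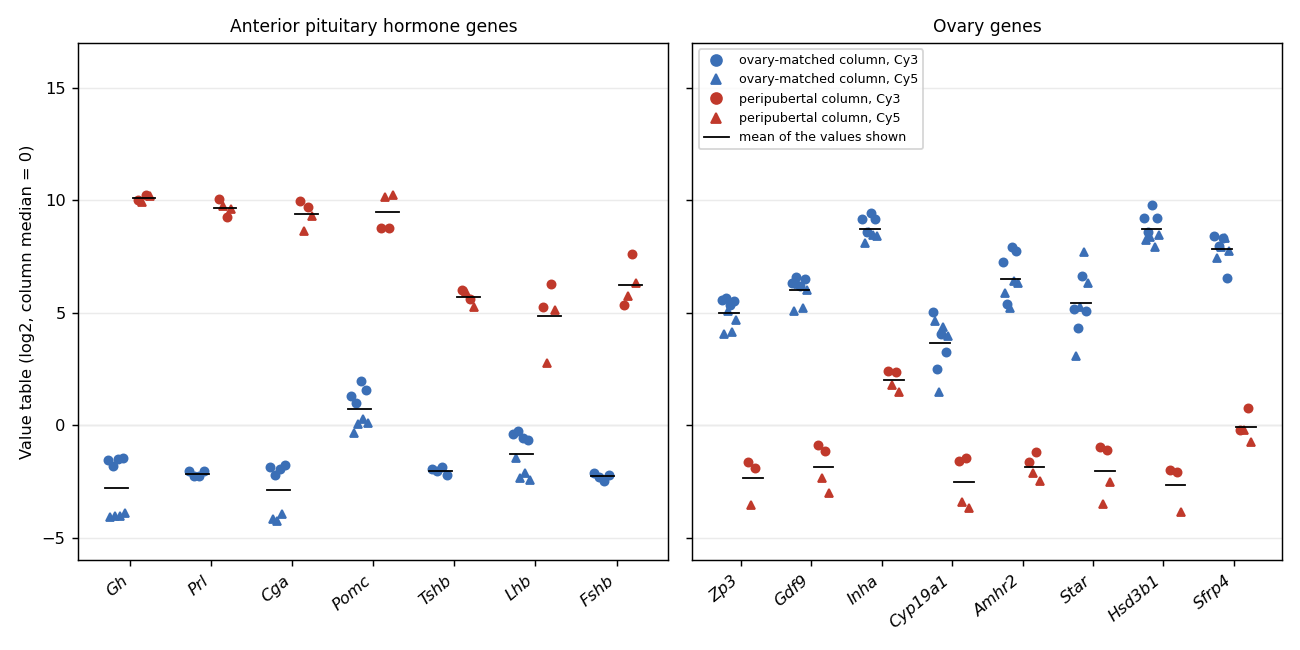
Value table levels (log2, column median 0) of 7 pituitary hormone genes and 8 ovary genes in the 8 control and early-life columns (blue) and P1 to P4 (red); circles are Cy3 and triangles Cy5 columns, bars are means of the values shown, and missing values are not drawn. Hormone genes sit at 2.77 to 10.24 in P1 to P4 and the ovary genes drawn at 2.41 or below, with no overlap between the sides within any gene drawn. The 8 ovary genes were picked for display, and Foxl2 and Cyp17a1, whose sides overlapped, are not drawn.

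RefSeq's promoter table, build GRCm38.p6, held 6 of the 7 hormone genes, and Gh had no entry. The 250 bases upstream of each start were searched on both strands for TATNCAT, a short form of the site of the transcription factor Pit-1 (Pou1f1), and for AAGGTCA, a form of the site of steroidogenic factor 1 (Nr5a1). The promoters of Prl and Lhb are shown because these hormones belong to cell types that use these factors. Capitals mark TATNCAT or its reverse ATGNATA in Prl, 148 and 47 bases before the start, and in Lhb the reverse of AAGGTCA, 129 bases before. They lie at chr13:27057320-27057569 (plus) and chr7:45420696-45420945 (plus).
Prl: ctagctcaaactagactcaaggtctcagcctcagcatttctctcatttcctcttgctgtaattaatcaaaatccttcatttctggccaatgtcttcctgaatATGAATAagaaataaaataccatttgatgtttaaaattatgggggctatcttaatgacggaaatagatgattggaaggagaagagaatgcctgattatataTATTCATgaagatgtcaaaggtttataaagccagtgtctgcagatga
Lhb: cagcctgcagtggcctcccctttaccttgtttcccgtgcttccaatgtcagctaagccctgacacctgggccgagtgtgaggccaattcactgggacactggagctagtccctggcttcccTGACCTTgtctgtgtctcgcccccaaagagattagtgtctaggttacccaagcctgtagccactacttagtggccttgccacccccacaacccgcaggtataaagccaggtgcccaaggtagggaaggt
Pomc also held AAGGTCA once, 63 bases before its start, and Cga, Tshb and Fshb held neither pattern. Of 32851 promoters in the table, 7.92% held TATNCAT and 4.08% AAGGTCA in the same window. A match describes letters, and no binding was measured.

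Of 25 transcription factors of the pituitary, 15 were higher and 1 lower, with a median difference of 2.48, and 13 had all values above the other columns. Pitx1, a homeobox factor of the early pituitary, measured 6.04, 5.51, 6.17 and 5.15 in P1 to P4, against -3.73 to -1.70 (median -2.02, 5 columns with a value), at least 220.1-fold higher. Lhx3, a LIM homeobox factor needed for most anterior cell types, measured 6.45, 4.86, 5.36 and 4.60 in P1 to P4, against -3.75 to 0.38 (median -0.94), a difference of 6.61 ± 0.54 with 5 of the 8 ovary channels well above background. Six6, a homeobox factor of pituitary, hypothalamus and eye, measured 5.02, 2.38, 3.45 and 2.52 in P1 to P4, at least 31.4-fold higher. None of these 3 overlapped the ovary columns.

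Factors of single lineages were also present. Pou1f1, which drives growth hormone, prolactin and TSH cells, measured 3.65, 2.45, 2.91 and 2.13 in P1 to P4, against -2.74 to -1.06 (median -2.09, 5 columns with a value), and was well above background in 2 of the 8 ovary channels. Tbx19, the T-box factor of corticotrophs, measured 3.06, 1.35, 0.43 and 0.74 in P1 to P4, at least 13.5-fold higher, with P1 the highest. Neurod4, a bHLH factor of the developing gland, was at least 10.8-fold and Pax7, a factor of the intermediate lobe, at least 20.2-fold higher. Isl1, a LIM factor of several lineages, measured 1.33, -0.16, 0.86 and 0.30 in P1 to P4, against -4.08 to -1.71 (median -2.69), with 2 of the 8 ovary channels well above background.

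Nr5a1 and Foxl2 act in both tissues. Nr5a1, which controls steroid enzymes in the ovary and gonadotroph genes in the pituitary, measured 3.34, 2.65, 4.19 and 3.21 in P1 to P4, against 5.24 to 7.14 (median 6.06), a difference of -2.77 ± 0.24 with no overlap. It was the only factor of the 25 called lower. Foxl2, a forkhead factor of granulosa cells and of gonadotrophs and thyrotrophs, measured 6.65, 5.05, 6.76 and 5.22 in P1 to P4, against 5.23 to 6.80 (median 5.89). The sides overlapped, the difference of -0.05 ± 0.12 was not called, and its sign changed with the scaling (0.11 centred on complete probes, 0.24 after quantile normalization). A second, dimmer Foxl2 probe averaged -1.57 in P1 to P4 and -0.47 in the other columns.

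Among receptors for releasing hormones and feedback signals, 13 of 19 tested genes were higher and 0 lower, with a median of 1.83 (1.80 with lower bounds). Ghrhr, the receptor for growth hormone-releasing hormone on somatotrophs, measured 2.86, 1.45, 3.55 and 2.10 in P1 to P4, against -4.21 to -1.47 (median -1.73, 7 columns with a value), at least 32.2-fold higher. Gnrhr, through which GnRH acts on gonadotrophs, measured 4.03, 2.36, 4.39 and 3.39 in P1 to P4, against -3.92 to -1.47 (median -1.87, 7 columns with a value), at least 66.1-fold higher. A second Gnrhr probe averaged 1.20 in P1 to P4 and -1.61 in the other columns. Drd2, the dopamine receptor that restrains lactotrophs, measured 2.33, 1.23, 2.08 and 0.98 in P1 to P4, at least 15.2-fold higher. None of the 3 overlapped.

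Avpr1b, the vasopressin receptor of corticotrophs, was at least 4.81-fold higher. Trhr, the TRH receptor of thyrotrophs and lactotrophs, measured -0.47, -1.71, 0.13 and -1.50 in P1 to P4, at least 3.03-fold higher by its mean, but its values overlapped those of the ovary columns. Crhr1, the CRH receptor of corticotrophs, differed by 1.80 ± 0.33 and overlapped too. Sstr3, a somatostatin receptor, measured 3.03, 2.02, 3.90 and 2.45 in P1 to P4, against -1.89 to 0.52 (median -0.80). Of the steroid and thyroid hormone receptors, Thrb differed by 3.36 ± 0.16, Pgr by 3.14 ± 0.57 (4 of the 8 ovary channels well above background) and Esr1 by 1.37 ± 0.39, while Nr3c1 (0.21 ± 0.17) was not called. The Esr1 difference rested on 1 probe: the other 3 averaged 0.25, -1.22 and -2.49 in P1 to P4 and -0.31, -1.54 and -2.42 in the ovary columns.

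Genes of prohormone processing and the secretory granule were higher in 19 of 25, lower in 0, with a median of 2.88. Of these, 18 had no overlap with the ovary columns. Scg2, secretogranin II, a granule matrix protein, measured 8.19, 7.71, 8.62 and 8.43 in P1 to P4, against -4.27 to -1.74 (median -2.85), at least 1923-fold higher. Chgb, chromogranin B, measured 9.85, 9.60, 9.65 and 9.82 in P1 to P4, against -1.17 to 1.04 (median -0.35), a difference of 9.87 ± 0.29. Chga, chromogranin A, measured 8.95, 7.54, 7.78 and 7.94 in P1 to P4, against -1.89 to 0.07 (median -0.63), a difference of 8.87 ± 0.27. The 4 columns stood together for Chgb, which was at percentiles 99.95 to 99.99 of them, near the top of the scale. For Chga, P1 stood above the other 3.

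The enzymes that cut prohormones were among them. Pcsk2, which makes the smaller peptides from Pomc, measured 7.74, 8.25, 7.55 and 8.22 in P1 to P4, against -2.22 to -0.26 (median -1.46), a difference of 9.19 ± 0.34. Pcsk1, which makes the first cuts, measured 4.74, 4.27, 5.03 and 3.93 in P1 to P4, at least 93.6-fold higher. Their inhibitors and partners Pcsk1n and Scg5 differed by 7.92 ± 0.17 and 7.24 ± 0.25. Pam, which amidates peptides, differed by 2.33 ± 0.28, and Cpe, carboxypeptidase E, by 0.42 ± 0.20, which was not called. Resp18, a granule protein of endocrine cells, averaged 7.26 ± 0.43 (SD, n = 4) in P1 to P4, at least 458-fold higher. The proteins that fuse granules split: Syt1 (6.69 ± 0.38, 7 of the 8 ovary channels well above background), Snap25 (2.11 ± 0.16) and Vamp2 (2.03 ± 0.12) were higher, while Stx1a, Unc13b, Cplx1, Rph3al and Sytl4 were not called.

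**Figure D3:**
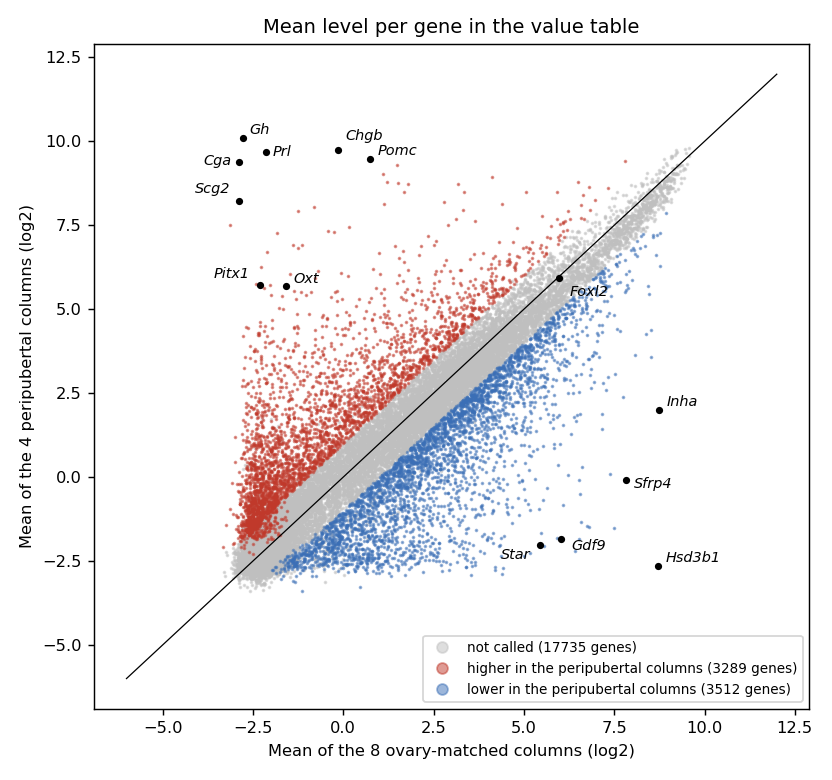
Mean of P1 to P4 against mean of the 8 control and early-life columns for 24536 genes (log2, column median 0), with the line of equality; red and blue are genes called higher and lower, grey is not called, and black points are named. Hormone and granule genes such as Gh (10.10 against -2.79) lie in the upper left and Hsd3b1 (-2.64 against 8.72) in the lower right.

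Voltage-gated channels, which let endocrine cells fire and release their hormones, were higher in 13 of 19 tested genes and lower in 0, with a median of 1.60. Cacna1g, a low-voltage calcium channel, measured 2.07, 2.54, 3.64 and 2.46 in P1 to P4, against -3.48 to -0.77 (median -1.79), a difference of 4.66 ± 0.37 with 6 of the 8 ovary channels well above background. The sodium channel Scn3a differed by 3.73 ± 0.27 and the BK channel subunit Kcnmb4 by 3.27 ± 0.26, while the BK channel pore Kcnma1 was not called at -0.58 ± 0.17. The values of these 3 higher genes lay apart on the 2 sides.

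Secreted peptides and local signals moved both ways, with 9 of 18 higher and 6 lower. Dlk1, a membrane ligand found in hormone cells, measured 9.49, 8.81, 9.88 and 8.96 in P1 to P4, against -0.09 to 4.25 (median 1.05), a difference of 7.80 ± 0.58. Gal, galanin, a peptide of lactotrophs, measured 6.33, 9.12, 9.89 and 8.57 in P1 to P4, against 0.77 to 2.60 (median 1.67), and P1 was the lowest of the 4. Crhbp, which binds CRH, measured 4.42, 5.23, 4.32 and 4.56 in P1 to P4, at least 107-fold higher. Cck was at least 24.4-fold and Vip at least 6.69-fold higher, and Cartpt measured 3.04, 1.75, 2.28 and 1.61 in P1 to P4, against -3.58 to -0.86 (median -1.88), with 3 of the 8 ovary channels well above background. Genes known from the ovary were among the 6 lower. Inhba, an activin subunit, measured 0.51, -0.49, 0.59 and -0.23 in P1 to P4, against 6.55 to 8.61 (median 7.16). Fst, the activin-binding follistatin, measured -0.22, -2.97, -0.78 and -1.43 in P1 to P4, against 5.77 to 7.15 (median 6.89). Inhbb (-4.39 ± 0.26), Wnt4 (-4.05 ± 0.36), Tac1 (-2.14 ± 0.36) and Bmp4 (-1.27 ± 0.19) were the others.

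Markers of the posterior lobe and of neurons were also higher, in 13 of 18 tested genes with 0 lower and a median of 1.62 (1.32 with lower bounds). Over the 11 members with all 12 values, the mean level was 1.31 to 2.47 in P1 to P4 and -1.23 to 0.56 in the ovary columns. Oxt, oxytocin, measured 6.82, 5.16, 5.53 and 5.23 in P1 to P4, against -2.74 to -0.34 (median -1.67), a difference of 7.26 ± 0.25. Avp, vasopressin, measured 2.47, 1.24, 2.25 and 2.09 in P1 to P4, at least 21.0-fold higher. Both are made by hypothalamic neurons whose axons end in the posterior lobe, and neither overlapped. Rax, a homeobox factor of the hypothalamus and of posterior lobe glia, was at least 5.34-fold, Gad2, which makes GABA, at least 31.5-fold, and Slc17a6, a glutamate transporter of neurons, at least 19.9-fold higher. Syn1, a synaptic vesicle protein, differed by 4.40 ± 0.14. The myelin genes Mbp (-0.08 ± 0.23) and Mog (0.54 ± 0.12) were not called. The part of other tissue in these levels was not tested.

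Folliculostellate cells, which support the hormone cells, and pituitary stem cells left no such pattern: of 12 markers 1 was higher and 4 lower, with a median of -0.54. S100b, the usual marker of folliculostellate cells, measured 0.63, -1.25, 1.06 and -0.92 in P1 to P4, against 1.27 to 5.25 (median 3.08), a difference of -3.37 ± 0.55. Vim, vimentin, was lower (-2.97 ± 0.21), and Aldoc, an aldolase, higher (1.42 ± 0.42). Many of these genes are also expressed in ovary, so a difference from ovary does not measure these cells.

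Oocyte genes were lower in 9 of 11 tested members and higher in 0, with a median of -5.45. Another 8 members, among them Zp2, Bmp15, Nobox and Mos, had values in all 8 ovary columns but in 2 of the peripubertal columns, and so were not tested. Gdf9, a growth factor of the oocyte, measured -0.87, -2.35, -1.16 and -3.00 in P1 to P4, against 5.09 to 6.58 (median 6.24), a difference of -7.87 ± 0.27. Zp3, whose probe is shown above, measured -1.64, -3.55 and -1.88 in P1, P2 and P3, against 4.04 to 5.64 (median 5.23). Zp1, another coat protein, measured -2.20, -3.78 and -2.01 in P1, P2 and P3, against 2.56 to 4.41 (median 3.76). Padi6, an enzyme of the oocyte lattices, measured -2.17, -2.42 and -3.75 in P1, P3 and P4, against 3.20 to 4.85 (median 4.46). The peripubertal values of these 3 genes lay below all ovary values, mostly in the range of background. Ooep (-0.37 ± 0.14) and Figla (-0.34 ± 0.85) were not called.

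Granulosa cell genes were lower in 10 of 12 and higher in 0, with a median of -4.58. Inha, whose probe is shown above, measured 2.41, 1.80, 2.37 and 1.47 in P1 to P4, against 8.08 to 9.44 (median 8.59), a difference of -6.73 ± 0.16. In all 4 columns it was above the ovary columns' lowest values of probes well above background. Amhr2, the receptor for anti-Müllerian hormone, measured -1.64, -2.12, -1.19 and -2.46 in P1 to P4, against 5.23 to 7.91 (median 6.35). Nr5a2, a nuclear receptor of granulosa cells, measured -0.91, -2.39, 0.09 and -2.64 in P1 to P4, against 5.69 to 7.35 (median 6.78). Cyp19a1, aromatase, which makes oestrogen, measured -1.60, -3.39, -1.47 and -3.65 in P1 to P4, against 1.46 to 5.02 (median 4.00). Hsd17b1, which makes oestradiol from oestrone, measured -2.04, -1.50, -1.78 and -2.95 in P1 to P4, against 4.78 to 6.59 (median 5.42). No values of the 2 sides overlapped in these 5 genes. Amh, Fshr and Wt1 had 2 peripubertal values each and were not tested: Amh was -1.52 and -2.03 in P1 and P3, against 1.30 to 3.18 (median 2.50), and Fshr -2.17 and -2.39 in P1 and P3, against 2.26 to 4.08 (median 2.72).

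Genes of theca cells and steroid synthesis were lower in 9 of 12 and higher in 0, with a median of -3.09. Hsd3b1, which makes progesterone from pregnenolone, measured -1.99, -2.07 and -3.85 in P1, P3 and P4, all in the range of background, against 7.91 to 9.78 (median 8.51). Star, which brings cholesterol into mitochondria, measured -0.98, -3.48, -1.09 and -2.51 in P1 to P4, against 3.08 to 7.70 (median 5.22). Cyp11a1, the first enzyme of steroid synthesis, had only -2.09 and -2.25 in P1 and P3, against 7.69 to 9.02 (median 8.40). Fdxr and Scarb1, for electron and cholesterol supply, differed by -5.29 ± 0.35 and -4.70 ± 0.30. Cyp17a1, which makes androgens, was much nearer: 3.78, 2.22, 3.86 and 2.54 in P1 to P4, against 3.00 to 5.96 (median 4.41), with overlap and a difference of -1.46 ± 0.50. Por, Stard3 and Tspo, which many tissues express, were not called.

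Luteal cell genes were lower in 7 of 12, with a median of -1.52, and the 1 higher was Pgr, also in the receptor list. Sfrp4, a secreted WNT antagonist, measured -0.21, -0.20, 0.77 and -0.74 in P1 to P4, against 6.53 to 8.40 (median 7.96). Ptgfr, the receptor for prostaglandin F2alpha, measured -1.94, -4.10, -1.63 and -3.13 in P1 to P4, against 2.49 to 5.97 (median 4.54). Akr1c18, which inactivates progesterone, measured -1.47, -3.58, -1.76 and -3.71 in P1 to P4, against -0.40 to 6.88 (median 3.49), and 3 of the 4 peripubertal values of both genes were in the range of background. Lhcgr, the LH receptor, had 2 peripubertal values, -1.99 and -2.25 in P1 and P3, against 2.90 to 4.29 (median 4.00). Markers of the ovarian surface were lower in 5 of 8, among them Krt19 (-6.36 ± 0.58) and Msln (-5.33 ± 0.45), and 1 was higher, Gpm6a (1.65 ± 0.18), which neurons also express. Oviduct markers varied among the ovary columns themselves: Ovgp1, oviduct-specific glycoprotein, measured 0.94, 1.06, 2.03 and 1.10 in P1 to P4, against 1.89 to 9.74 (median 7.41), with overlap. Of 14 oviduct markers 3 were lower and 1 higher, Epcam, an adhesion molecule of many epithelia (2.97 ± 0.47).

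**Figure D4:**
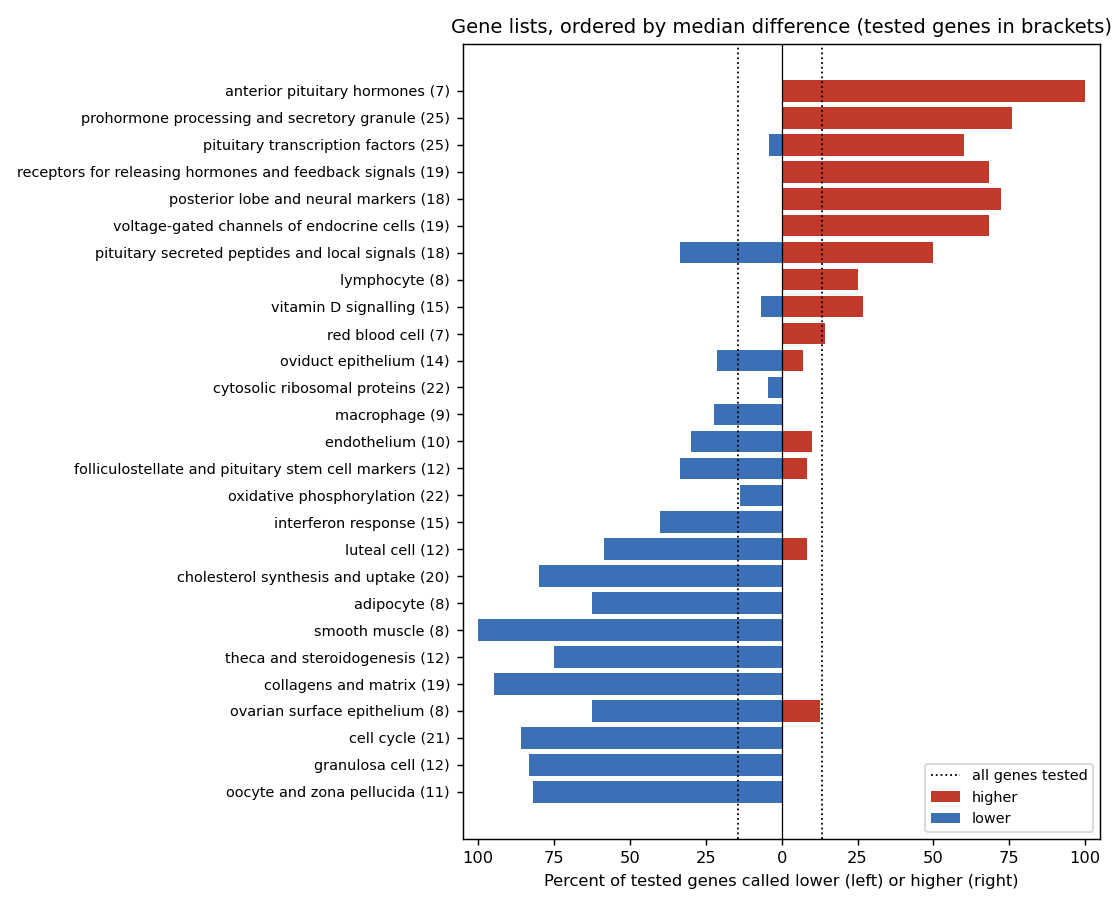
Share of each list's tested genes called higher (red, right) or lower (blue, left) in P1 to P4, ordered by median difference; brackets give the number tested, and dotted lines the shares over all 24536 genes, 13.4% and 14.3%. Pituitary, granule, receptor, channel and neural lists lie above, and oocyte, granulosa and cell cycle lists below.

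Lists that belong to neither tissue alone differed in size. Cell cycle genes were lower in 18 of 21 and higher in 0, with a median of -4.17. Their mean level was -0.44 to 1.09 in P1 to P4 and 2.61 to 4.54 in the ovary columns. Birc5, survivin, measured 0.39, -0.77, 1.06 and -0.90 in P1 to P4, against 4.18 to 6.20 (median 5.42), and Bub1b, a kinase of the spindle checkpoint, differed by -5.17 ± 0.24. Genes of collagen and matrix were lower in 18 of 19, for example Fn1, fibronectin (-4.75 ± 0.26), and Col6a1 (-4.67 ± 0.22), while Col1a2 was not called at 0.05 ± 0.34. Smooth muscle genes were lower in 8 of 8, with the smooth muscle actin Acta2 at 1.86, 0.69, 2.34 and 1.85 in P1 to P4, against 5.37 to 8.12 (median 6.45). Cholesterol synthesis genes were lower in 16 of 20 with a median of -1.88, for example Fdps, farnesyl diphosphate synthase (-3.27 ± 0.38). Adipocyte markers were lower in 5 of 8, for example Plin4 (-6.90 ± 0.71) and Cfd (-6.02 ± 1.08).

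Genes of general upkeep and of blood lay nearer to 0. Ribosomal protein genes were not called in 21 of 22, with a median of -0.24 and Rps3 (-1.78 ± 0.17) lower. Genes of oxidative phosphorylation were lower in 3 of 22, Cyc1, Cox5a and Uqcrc1, with a median of -0.57. Of the macrophage markers 2 of 9 were lower, Lyz2 (-1.63 ± 0.32) and Mrc1 (-1.21 ± 0.31). Of the endothelial markers 3 of 10 were lower, and Plvap, a protein of fenestrated capillaries, was higher: 5.61, 3.69, 5.92 and 4.41 in P1 to P4, against 1.79 to 3.92 (median 2.58), a difference of 2.21 ± 0.19. Cd3e, a T cell receptor chain, measured 4.80, 4.83, 4.71 and 4.74 in P1 to P4, against 0.43 to 2.11 (median 1.10), and Cd79b, a B cell receptor chain, differed by 2.02 ± 0.41. The other 6 lymphocyte markers tested, Cd4 and Ptprc included, were not called. Of 15 interferon response genes 6 were lower and 0 higher, led by Bst2 (-4.61 ± 0.15).

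Vitamin D signalling, which the diets address, had 15 tested genes, of which 4 were higher and 1 lower. In all of them the peripubertal values overlapped those of the ovary columns. Vdr, the receptor, measured 1.52, -0.78, -0.04 and -0.94 in P1 to P4, against -1.48 to 0.86 (median -0.03), was not called at 0.14 ± 0.26, and its sign turned without P1 (-0.13). Calb1, a calcium-binding protein, was higher (2.27 ± 0.90, limma adjusted p = 0.0476). It measured 3.23, 2.45, 3.00 and 2.18 in P1 to P4, against -2.40 to 3.37 (median 0.40). The other higher ones were Cyp27a1 (1.47 ± 0.19) and Cyp27b1 (1.02 ± 0.14, 6 of the 8 ovary channels well above background), hydroxylases of vitamin D. Cubn, a receptor for the vitamin D binding protein, was at least 2.05-fold higher. Lrp2, the partner of Cubn, was lower (-1.14 ± 0.43), and its sign turned with the median over all its probes (0.15). Since the 2 sides carried different tissue genes, these values do not measure an effect of diet.

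Probes with values on 1 side only were left out of the fit. The other columns alone held 1200 probes of 1158 genes, with values in at least 7 of the 8 columns and in fewer than 3 of P1 to P4. Of these, 417 were not well above background in any of the 8 ovary channels, so an empty peripubertal cell does not by itself mark a loss. The brightest were Cyp11a1, Hsd3b6, a second 3-beta dehydrogenase, the carboxylesterase Ces2a, the cystatin Cst12, the gonadal factor Wt1, Cnmd (chondromodulin), the oocyte gene Zar1 and the protease inhibitor Serpina5. The peripubertal columns alone held 11 probes, and all 11 were at background in the 8 ovary channels. The brightest of them, Ypel4, was at least 1.35-fold and Minar1 at least 1.28-fold higher, and Stpg4 and Akr1d1 gave no bound above 1. The counts of 1200 and 11 are not comparable. Empty cells fell mostly in Cy5 columns, and there are 2 Cy3 columns among P1 to P4 but 4 among the others. A probe dim in ovary thus often kept 4 values and stayed in the fit, as for Prl and Tshb.

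Among themselves, P1 to P4 differed in some hormone and blood genes by more than in Gh, whose values lay at the top of the scale. P1 and P2 shared an array label, as did P3 and P4, and with 2 columns each the array and the samples cannot be told apart. The mean of P3 and P4 was above that of P1 and P2 by 1.68 for Lhb and 1.44 for Fshb, and below it for Tbx19 (-1.62). Each pair held 1 column of each dye. Cy5 minus Cy3 was -1.825 for Lhb, larger in size than its pair difference, -0.44 for Fshb and -0.70 for Tbx19. The pair P3 and P4 was also higher in red cell genes. The beta-globin gene Hbb-bt measured 5.17, 5.10, 8.21 and 6.94 in P1 to P4, and Alas2, an enzyme of haem synthesis, 1.17, 0.52, 4.04 and 2.45 in P1 to P4. Their pair differences were 2.44 and 2.40, and that of Cfd was 2.64. Over 7 red cell genes the median difference from the ovary columns was 0.13, and only Slc4a1 (1.17 ± 0.47) was called. The part of blood in the other differences was not tested.

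**Figure D5:**
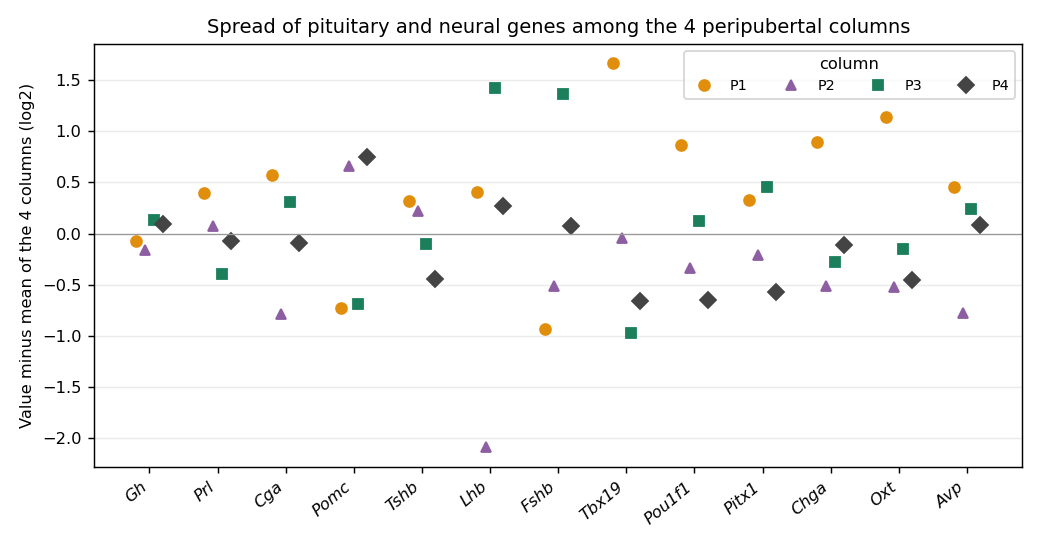
Value of each peripubertal column minus the mean of the 4 (log2) for 7 hormone genes, the factors Tbx19, Pou1f1 and Pitx1, and Chga, Oxt and Avp; each symbol is 1 column. Gh values lie closest together (SD 0.14), at the top of the scale, and Lhb values farthest apart (SD 1.48), with P2 lowest. Dye is not removed here, and for Lhb Cy5 (P2 and P4) minus Cy3 (P1 and P3) was -1.825.

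The scanner files hold a second set of values under the same labels. There, Gh, Prl, Cga, Tshb, Fshb, Pitx1, Ghrhr, Gnrhr, Scg2 and Pcsk1 were not well above background in any of the 12 channels, the 4 peripubertal ones included. Pomc was well above background in all 12, with a mean log2 intensity of 9.26 in the peripubertal and 9.15 in the other channels, and Lhb likewise with 7.39 and 7.47. Chgb measured 8.66 and 8.41. The ovary genes were bright in both groups: Hsd3b1 averaged 17.31 and 16.92, Inha 16.87 and 16.96, and Gdf9 14.41 and 14.30. Pomc, Lhb, Chgb, Hsd3b1 and Inha were tested there and none was called.

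Limma on the scanner intensities, which the choice of columns did not use for this contrast, called 8 genes higher (0.0441%) and 4 lower (0.022%) among 18157 in the peripubertal channels, and 2487 had an unadjusted p under 0.05. By the slide numbers of the scanner files, the 4 peripubertal channels lay on 1 slide and the other 8 on another, so that slide and group cannot be told apart in these calls. No member of the 27 gene lists was among the 12. The lower genes were Snd1, a nuclease of RNA regulation (-1.63 ± 0.14, adjusted p = 0.00303), Dvl3, Paip1 and Gcat. The higher ones included Vmn2r28, a vomeronasal receptor (3.90 ± 0.39, adjusted p = 0.00615), Svs3a, Ndufaf5 and Evi2a. The fit kept probes well above background in at least 4 channels, which the 4 peripubertal channels alone can meet. In the other 8 channels Vmn2r28 averaged 6.12 and Svs3a 6.19, near Prl at 6.31, which was not well above background in any channel. Their differences are thus from values near background and give no plain fold. Ndufaf5 and Evi2a averaged 9.43 and 7.58 there. In each of the 12 called genes all peripubertal values lay apart from all the others, but the calls picked these genes by the same values, so this adds no support. Of these 12 genes 10 were tested in the value table, where 1 was called in the same direction and 0 in the other. Over all genes the value table called 13.4% higher and 14.3% lower, so this count is near the general share. Leaving out 1 channel took the counts to between 1 and 8 higher and 1 and 6 lower. Only 1 of each was left without the channel labelled C2, C4, E1, E2 or E3. These are channel labels, and the table columns of the same names matched other channels.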

How the data were processed

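The deposited value table holds values on a log2 scale, and every column's median was found to be 0. The steps by which the authors made the table are not given in the sources used here. The deposited scanner files give spot signals as intensity, not normalized, per the file headers from Agilent Feature Extraction 11.0.1.1, with probe positions in mm9. Table rows were named through the feature number of the scanner files; of 39429 probes, 27234 were named by RefSeq accession, 3576 by symbol, 565 by synonym and 8054 by the files' own name. Features of a probe were averaged, probes needed values in 3 columns a side, and the brightest probe stood for a gene. The table was fitted with limma 3.58.1 in R 4.3.3 (dye as covariate, array as random block, correlation 0.0636), p-values adjusted by Benjamini-Hochberg over all 24536 genes, with calls at 0.05 and 2-fold. The design set P1 to P4 against the other 8 columns as 1 group. Scanner channels were corrected by normexp (offset 50), loess and Aquantile, with control spots (1377) and outlier spots left out and probes well above background in at least 4 channels kept; the array correlation was 0.416. Precision is limited by the small number of arrays.

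The members, the 27 lists (418 genes, of which 416 had a probe and 389 were tested), the rules and the alternatives were chosen with earlier results of these data known. Named genes are the 12 largest differences each way among genes called with all values apart, the hormones and set receptors, factors and ovary genes, up to 4 members with the largest difference of each list, up to 8 genes with values on 1 side, and the 6 with the largest SD; some genes under this rule are not reported here. Other list members, the scanner genes and the other probes given were named after their values were seen. Deviations of peripubertal columns correlated with same-numbered control or early-life columns at -0.197 to 0.0287. Those of control and early-life columns, both on the ovary side, correlated with each other at 0.17 to 0.46. For these deviations 1 dye mean was removed over all columns, so a dye effect that differs between the sides stays in them. Whether replicate numbers pair the 2 sides is therefore not settled by these values. Simulated data with 200 changed genes were used to check the fits. In the fit of deposited columns 88.1%, 91.0% and 100% of changes of 1.5, 2 and 4 (log2) were recovered with 6 false calls. In that of channels the shares were 91.0%, 95.5% and 98.5% with 5. The simulated noise was normal, with no slide effect and an array correlation below the 0.416 of the channels. Far fewer genes changed than the 3289 and 3512 called in the columns. These shares check the code and do not give the error rates of these data.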

Additional observations from a re-analysis of the deposited data

Results flagged for a closer look

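In groups of 4 columns, a value was singled out when its gap to the nearest of the others as a share of the group's range exceeded Dixon's 95% critical value. Of 355 groups of named genes 7 were singled out. The share of 5% by chance holds for 4 like values, but each group mixed Cy3 and Cy5 columns, whose levels often differed. The 7 thus cannot be set against that share. In the peripubertal columns the value singled out was that of Ovgp1, at 2.03 in P3 against 0.94 to 1.10 in the other 3. Among the ovary columns, by their table labels, C2 was low in Lhcgr (2.90), Fdxr (5.78) and Hmgcs1 (4.42). C4 was low in Pax8 (-1.24) and in S100g (-1.32), and E1 was high in Cyp11a1 (9.02).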

How the results depend on the processing

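The table's counts of 3289 higher and 3512 lower genes stayed within 1.5 times under 13 alternatives of scaling, missing values, probe choice, ovary columns and design. Without 1 column they were 2988 to 3438 and 3116 to 3593, and with the replicate block 3286 and 3543. Centring on probes with all 12 values moved the median of all genes to 0.18 (3971 higher, 2940 lower). The scanner counts of 8 higher and 4 lower became 25 and 10 with no array block, 14 and 7 with the replicate block, 5 higher with quantile normalization and 4 higher with probes above background in 1 channel. Without 1 channel they were 1 to 8 and 1 to 6. Reversed signs, all of differences not called or near 1, were Foxl2 (0.11 centred, 0.24 quantile, 0.051 against control columns only), Vdr (-0.010 against control columns only) and Lrp2 (0.15 with the median over probes). Against these control columns, which matched channels labelled early-life, Hbb-bt was -0.32, Hbb-bs -0.45 and Alas2 -0.31. Without 1 column, Foxl2 ranged from -0.10 to 0.018, Vdr from -0.13 to 0.43, Hbb-bt from -0.15 to 0.90, Hbb-bs from -0.32 to 0.79 and Alas2 from -0.29 to 0.71. The cause was not tested. Dim probes set the limits: without background marks for P1 to P4, a low peripubertal value or an empty cell gives no fold.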
